A study of Rattus norvegicus with 8 samples.

Results

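The endoplasmic reticulum (ER) chaperones described here are the products of 9 rat genes: Hspa5, Hsp90b1, Calr, Canx, Pdia3, Pdia4, Pdia6, P4hb and Hyou1. They were read on all probe sets whose annotation gives one of these symbols and no other, which came to 23 of 8799 probe sets and 9 of the 4736 genes named singly on the array. The rule used symbols alone, but the 9 genes were picked with earlier results of these data known. The study compared 4 arrays of induced and 4 arrays of uninduced cells of Htt14A2.5, a line of PC12 cells, which derive from a rat adrenal medullary tumour. By the labels, Htt14A2.5 stably carries a truncated, mutant exon 1 of the human huntingtin gene behind an inducible promoter, and both groups carry it. The induced group received ponasterone, a steroid inducer, for 48 h, and the uninduced group did not by its sample titles, although the free-text note of all 8 samples speaks of induction. Cells that lack the transgene were not analysed here, so the transgene product and ponasterone itself cannot be told apart as sources of a difference. All arrays come from 1 line, and the labels do not say whether replicates were separate cultures, so the p-values measure only the spread between these 8 samples, which may be technical.

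Secreted and membrane proteins enter the ER unfolded. The Hsp70-type chaperone BiP, encoded by Hspa5, and the Hsp90-type chaperone encoded by Hsp90b1 bind them as they fold, the lectins calreticulin and calnexin hold glycoproteins, and protein disulfide isomerases form and reshuffle their disulfide bonds. When unfolded protein accumulates, ER sensors start the unfolded protein response, in which the factors ATF6 and XBP1 raise transcription of many chaperone genes. PC12 cells are secretory cells whose granule proteins, such as chromogranins, fold in the ER.

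Transcripts of BiP, calreticulin and Hsp90b1 were higher in induced cells. BiP had the largest fitted rises among the 9 genes, 1.76-fold on its brightest probe set and 2.19-fold on a second one, and calreticulin rose 1.43- to 1.71-fold on its 3 probe sets. Hsp90b1 rose 1.32-fold on the brightest of its 3 probe sets, and the others, at 1.28- and 1.39-fold, did not pass the test. No probe set of calnexin, Pdia3, Pdia4, Pdia6, P4hb or Hyou1 passed the test. Of the 23 probe sets, 22 passed the filter on low signal. Of these, 6 rose and 0 fell, 27.3% of those tested, where 4.10% of all 6129 probe sets tested rose (limma, Benjamini-Hochberg adjusted p under 0.05). At an unadjusted p under 0.05 there were 13 of the 22, and 1105 of the 6129. Over all probe sets 251 rose and 182 fell, or 166 and 63 when each array was centred on its median. Counting 1 probe set per gene, the brightest, 3 of 9 genes rose, against 4.31% of 3623 genes. The fitted difference was above 0 for 21 of the 22 probe sets, with a median log2 difference of 0.40 beside -0.05 over all probe sets tested. On 10 of the 22 every induced array lay above every uninduced array, which held for 6.48% of all probe sets tested. A further 6 probe sets, of 4 genes, had adjusted p-values between 0.0617 and 0.0845 and were not called. Log2 differences here are induced minus uninduced, computed after 7 was added to each signal, with standard errors from the fit, and folds derive from them. In bulk RNA, a change in the share of cells that express a gene and a change in its RNA per cell cannot be told apart.

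**Figure D1:**
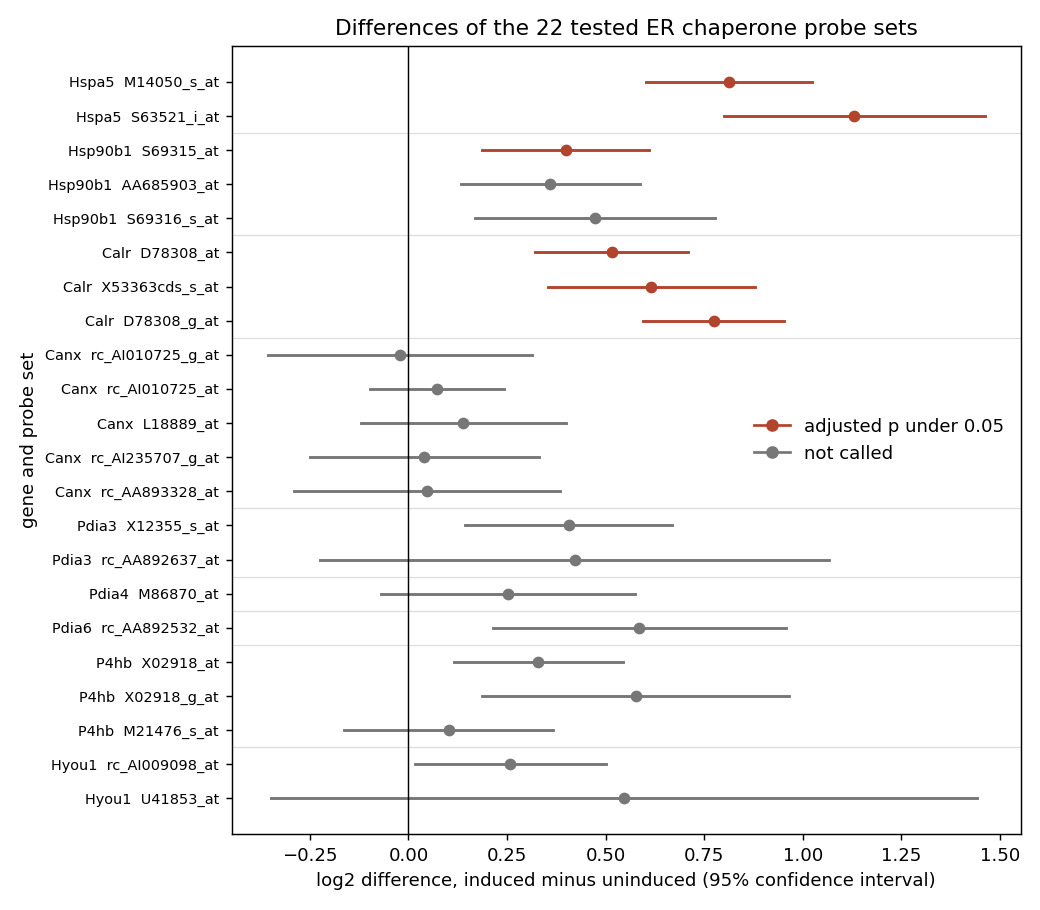
Log2 difference, induced minus uninduced, of the 22 tested ER chaperone probe sets, grouped by gene, with points for the fitted values and bars for 95% confidence intervals. The 6 called probe sets belong to Hspa5, Calr and Hsp90b1, and the 5 probe sets of Canx lie between -0.02 and 0.14.

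The stretches of DNA before the gene starts are shown because the ER stress response element (ERSE), the site that the factors ATF6 and NF-Y use together in mammals, lies in the promoters of several of these genes. Windows of 250 bases before to 50 bases after the annotated start were taken from RefSeq (build GRCr8). They were found for 7 of the 9 genes, all but Pdia3 and Pdia6, with a second window for Hyou1. The window of Hspa5, chr3:38452766-38453065 on the plus strand, is given whole with its ERSE in capitals.

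Hspa5: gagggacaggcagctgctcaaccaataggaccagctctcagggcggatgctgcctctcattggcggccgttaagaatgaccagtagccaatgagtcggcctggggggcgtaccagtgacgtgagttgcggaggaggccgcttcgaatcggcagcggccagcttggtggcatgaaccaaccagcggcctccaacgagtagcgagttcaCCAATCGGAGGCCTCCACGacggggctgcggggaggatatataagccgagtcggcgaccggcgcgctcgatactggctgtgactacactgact

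An exact ERSE, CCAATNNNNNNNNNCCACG on either strand, occurred in the windows of Hspa5, Hsp90b1 (at 2 places), Calr and Canx. The related ERSE-II, ATTGG and CCACG with 1 base between them, occurred at 2 places in the first window of Hyou1. The Hspa5 element began 43 bases before the annotated start, those of Hsp90b1 176 and 72 bases before it, that of Calr 232, that of Canx 230 and those of Hyou1 188 and 88. In the gene's own direction the Calr element, the second Hsp90b1 element and both Hyou1 elements run backwards. In the following stretches the capitals mark the element, 5′ to 3′ on the gene's strand.

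Hsp90b1 (chr7:23012439-23012481, minus strand): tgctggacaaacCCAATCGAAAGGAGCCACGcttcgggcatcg

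Hsp90b1 (chr7:23012335-23012377, minus strand): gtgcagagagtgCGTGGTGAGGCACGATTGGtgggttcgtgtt

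Calr (chr19:40213123-40213165, plus strand): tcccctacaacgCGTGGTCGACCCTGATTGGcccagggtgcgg

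Canx (chr10:35158057-35158099, minus strand): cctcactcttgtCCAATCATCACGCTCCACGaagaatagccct

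Hyou1 (chr8:53602682-53602716, plus strand): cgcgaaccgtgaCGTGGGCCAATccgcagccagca

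Hyou1 (chr8:53602782-53602816, plus strand): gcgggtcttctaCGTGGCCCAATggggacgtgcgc

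Exact ERSEs were rare in windows of this size. They occurred in 22 of 33469 windows (0.0657%), which belonged to 21 genes, 4 of them the members named above. ERSE-II occurred in 17 windows (0.0508%) of 17 genes. The pentamer CCAAT, which lies inside both elements, was found in 37.5% of all windows and in the windows of all 7 genes. The windows of Pdia4 and P4hb held CCAAT 3 and 2 times and neither full element. The octamer TGACGTGG, a form of the site that XBP1 can bind, occurred in the first Hyou1 window, where it overlaps the more distant ERSE-II, and in 0.595% of all windows. The exact octamer TGACGTCA, the cyclic AMP response element, was in none of the members' windows and in 1.83% of all. Only exact letters were searched, so near matches to any of these sites were not counted. These matches describe letters in a fixed window and say nothing of binding.

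**Figure D2:**
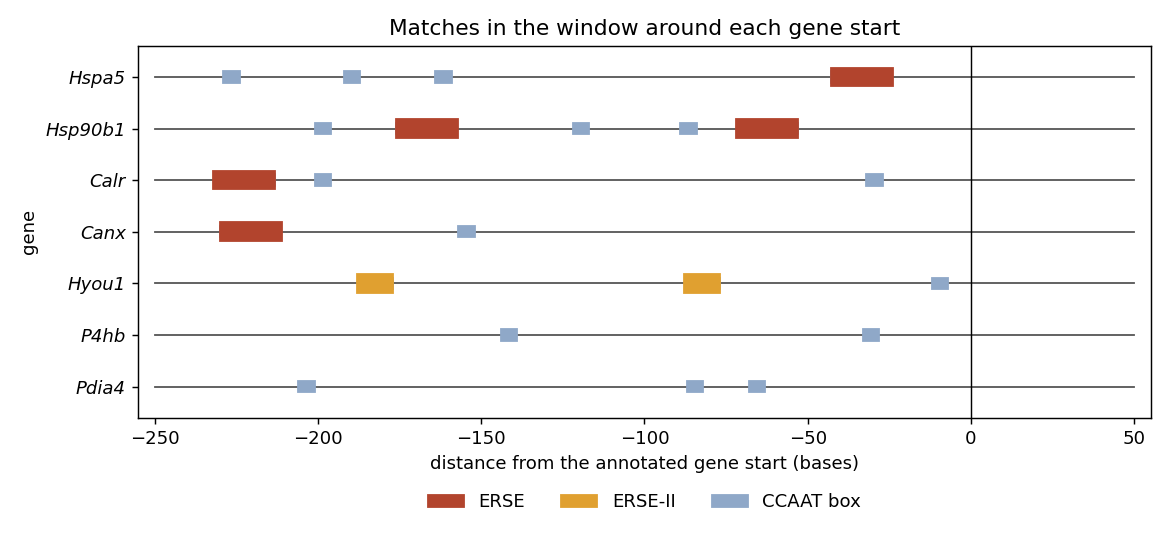
Exact matches on either strand in the window around each annotated gene start, with distance from the start in bases along the horizontal axis and 1 line for each of the 7 genes with a window (the first window for Hyou1). Red boxes are ERSEs, orange boxes are ERSE-II and blue-grey boxes are CCAAT outside these elements, and P4hb and Pdia4 show blue-grey boxes alone.

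Set beside expression, the 3 genes that were called, Hspa5, Hsp90b1 and Calr, had an exact ERSE in the window, and so did Canx, which did not pass on any probe set. This match depends on the threshold, and the Hsp90b1 call held in 11 of 19 alternatives. Hyou1, with ERSE-II, differed by 0.26 on its brighter probe set and was not called (limma adjusted p = 0.244). P4hb and Pdia4, with neither element, differed by 0.33 and 0.25 on their brightest probe sets (limma adjusted p = 0.0717 and 0.417). Pdia6 (0.59, limma adjusted p = 0.0640) and Pdia3 (0.41, limma adjusted p = 0.0689) had no window. Of the other 17 genes with an exact ERSE, 2 were tested on the array, Ero1b, an ER oxidase, and Hnrnpa3, an RNA-binding protein. Their log2 differences were -0.10 ± 0.18 and 0.05 ± 0.10, and neither was called (limma adjusted p = 0.862 and 0.889). Of the other 16 genes with ERSE-II, 2 were tested and were not called. Nucb1, a calcium-binding protein of the Golgi, differed by 0.30 ± 0.09 (adjusted p = 0.0829) and Prkcz, a protein kinase C, by -0.06 ± 0.20 (adjusted p = 0.931). These 4 genes were looked up because of their windows, after the members' values were known.

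BiP, the ER's Hsp70, both folds clients and holds the stress sensors inactive. Its brightest probe set (M14050_s_at) read 4389, 3812, 3650 and 4184 on the 4 induced arrays, against 2308, 2007, 2463 and 2337 on the 4 uninduced arrays. The lowest induced signal was well above the highest uninduced one. The log2 difference was 0.81 ± 0.10 (limma adjusted p = 0.00023), with means of 4009 ± 338 in induced and 2279 ± 193 in uninduced cells (SD, n = 4 each). A second probe set (S63521_i_at) read 839, 593, 753 and 661 in induced cells, against 261, 330, 322 and 370 in uninduced cells. Its groups also lay apart, at a log2 difference of 1.13 ± 0.15 (adjusted p = 0.00064). The third Hspa5 probe set (S63521_r_at) read 1.1 to 7.4 in induced and 2.0 to 26.3 in uninduced cells. That is under the low-signal filter, so it was not tested and gives no information on the gene. Both tested probe sets passed under all 19 alternative settings, with log2 differences of 0.75 to 0.86 for the first and 1.04 to 1.23 for the second.

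**Figure D3:**
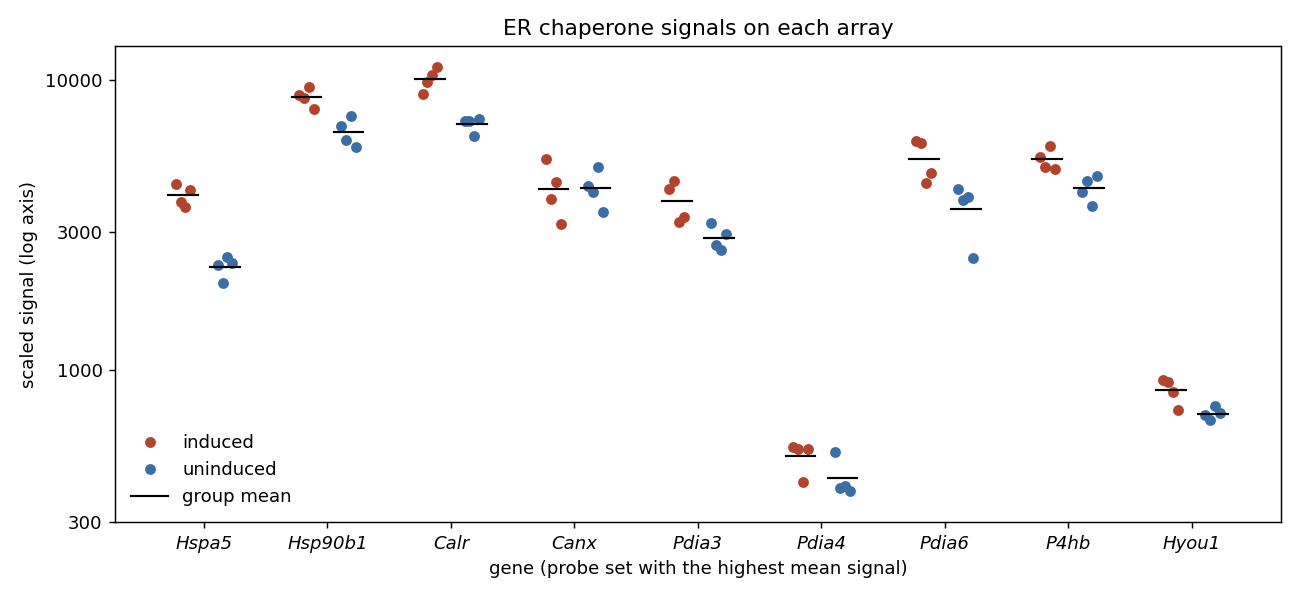
Scaled signal on a log axis for the brightest probe set of each of the 9 genes, with 1 point per array, induced arrays left of uninduced arrays, and lines at the group means. The groups of Hspa5, Hsp90b1, Calr, Pdia3, Pdia6 and P4hb do not overlap, and the uninduced arrays of Canx lie within the range of the induced ones.

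Hsp90b1 is the ER's Hsp90 and serves a narrower set of clients than BiP, among them integrins and Toll-like receptors. Its brightest probe set (S69315_at) read 8867, 8660, 9439 and 7941 in induced cells, against 6972, 6214, 7492 and 5859 in uninduced cells. The groups did not overlap, although induced replicate 4 and uninduced replicate 3 came close. The log2 difference was 0.40 ± 0.10 (limma adjusted p = 0.0266). The other probe sets differed by similar amounts, 0.36 ± 0.10 and 0.47 ± 0.14, and did not pass (adjusted p = 0.0617 and 0.0681). The call on the first probe set held in 11 of 19 alternatives. Of the 8 fits that left out 1 array it held in 3, those without induced replicate 4, uninduced replicate 1 or uninduced replicate 3. Its adjusted p reached 0.265 with median centring of the arrays, and without 1 array at most 0.0947, when uninduced replicate 2 was left out.

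Hyou1 is the large Hsp70 relative that exchanges nucleotide on BiP. Its brighter probe set (rc_AI009098_at) read 928, 912, 842 and 731 in induced cells, against 700, 674, 753 and 713 in uninduced cells. The groups overlapped through induced replicate 4 alone, which lay below uninduced replicate 3. The log2 difference of 0.26 ± 0.11 was not called (limma adjusted p = 0.244, 95% interval 0.02 to 0.50). The second probe set (U41853_at) exceeded the background level, the 95th percentile of 38 control probe sets for foreign transcripts or the reverse strand, on 5 of 8 arrays. Its difference of 0.55 ± 0.41 had an interval of -0.35 to 1.44 and was 0.09 without uninduced replicate 2.

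Calreticulin, the soluble lectin chaperone and a store of ER calcium, rose on every one of its probe sets. The brightest (D78308_at) read 8975, 9863, 10383 and 11075 in induced cells, against 7237, 7198, 6392 and 7315 in uninduced cells, a log2 difference of 0.52 ± 0.09 (limma adjusted p = 0.0036). D78308_g_at, which shares its record number, read 3225, 3554, 3141 and 3306 in induced cells, against 1993, 1822, 1935 and 1971 in uninduced cells. The difference of 0.77 ± 0.08 had the lowest p of the 22 probe sets (limma adjusted p = 0.0001). X53363cds_s_at read 3695, 3844, 3030 and 3076 in induced cells, against 2015, 2114, 2716 and 2064 in uninduced cells, a difference of 0.62 ± 0.12 (adjusted p = 0.0081). In that probe set uninduced replicate 3 stood nearer to the induced arrays than the rest of its group did. The first 2 passed under all 19 alternatives and the last under 16, with adjusted p = 0.117 under median centring.

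Calnexin, the membrane-bound lectin that works in the same cycle as calreticulin, showed no such separation on any of 5 probe sets. The brightest (rc_AI010725_g_at) read 5333, 3882, 4468 and 3186 in induced cells, against 4320, 4128, 5030 and 3498 in uninduced cells. The highest and the lowest of these 8 signals were both from induced arrays. Its log2 difference was -0.02 ± 0.15 (limma adjusted p = 0.969), and its sign turned in 4 of 19 alternatives, median centring (0.01) among them. The steadiest probe set (rc_AI010725_at) read 4461, 4079, 3981 and 4188 in induced cells, against 3915, 4175, 3915 and 3880 in uninduced cells. Its difference was 0.07 ± 0.08, with a 95% interval of -0.10 to 0.24. That interval lies below those of the called Hspa5 and Calr probe sets and overlaps that of the called Hsp90b1 probe set, 0.19 to 0.61. The other Canx intervals were wider and reached up to 0.40 (L18889_at). Whether Canx differed by less than the called genes was not tested. L18889_at differed by 0.14, and by 0.03 without uninduced replicate 4. The remaining probe sets differed by 0.04 and 0.05, both turning sign without induced replicate 1, and none of the 5 was called under any alternative.

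Pdia3 is the disulfide isomerase that the lectin chaperones recruit to glycoproteins. Its bright probe set (X12355_s_at) read 4206, 4475, 3249 and 3370 in induced cells, against 3225, 2696, 2594 and 2957 in uninduced cells. The groups did not overlap, but induced replicate 3 was only just above uninduced replicate 1. The log2 difference was 0.41 ± 0.12 and did not pass (limma adjusted p = 0.0689). The other Pdia3 probe set was above the background level on 1 of 8 arrays and was uninformative (0.42 ± 0.30).

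Pdia6, a disulfide isomerase that works with BiP, had 1 probe set. It read 6187, 6054, 4415 and 4784 in induced cells, against 4199, 3851, 3948 and 2438 in uninduced cells. The groups did not overlap, and the spread was wide in both, with uninduced replicate 4 far below the rest. The log2 difference of 0.59 ± 0.17 was larger than that of the called Hsp90b1 probe set and did not pass (limma adjusted p = 0.0640). It was called in 2 of 19 alternatives and in none of the 8 fits without 1 array, where it ranged from 0.41 to 0.67.

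P4hb, the classical protein disulfide isomerase and also a subunit of prolyl 4-hydroxylase, had 3 probe sets that differed by unlike amounts. X02918_at read 5445, 5004, 5903 and 4950 in induced cells, against 4127, 4475, 3690 and 4687 in uninduced cells, without overlap (log2 difference 0.33 ± 0.10, limma adjusted p = 0.0717). X02918_g_at differed by 0.58 ± 0.18 (adjusted p = 0.0845), with uninduced replicate 3 above induced replicate 4. M21476_s_at differed by 0.10 ± 0.12 (adjusted p = 0.755), and by 0.001 without induced replicate 2.

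Pdia4, a disulfide isomerase with an additional thioredoxin-type domain, had 1 probe set. It read 544, 538, 414 and 535 in induced cells, against 523, 394, 401 and 384 in uninduced cells. In each group 3 arrays lay close together and 1 lay near the other group, replicate 3 among the induced and replicate 1 among the uninduced. The log2 difference of 0.25 ± 0.15 was not called (limma adjusted p = 0.417, 95% interval -0.07 to 0.58).

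On the brightest probe sets, BiP changed by more than the average of the other members. On each array, the log2 signal of Hspa5 was set against the mean over the other 8 genes, with the brightest probe set of each. Hspa5 minus the others was 0.27, 0.12, 0.16 and 0.43 on the induced arrays, against -0.31, -0.39, -0.13 and -0.08 on the uninduced arrays. The groups did not overlap, and the mean shifted by 0.47 ± 0.10 (SE), beyond the shift of 0.34 in the other genes themselves. An exact permutation test over the 8 arrays gave p = 0.0286 (2-sided, 70 arrangements), the smallest p that 4 against 4 arrays allow. Hspa5 was set apart in this way with its rise already known. The shift stayed between 0.41 and 0.52 without any 1 array. It compares changes within arrays, since the levels of different probe sets are not comparable. Changes also varied between probe sets of the same gene, from 0.52 to 0.77 for Calr and from 0.10 to 0.58 for P4hb. The shift and its p therefore hold for the probe sets used, and other choices of probe set were not tested.

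**Figure D4:**
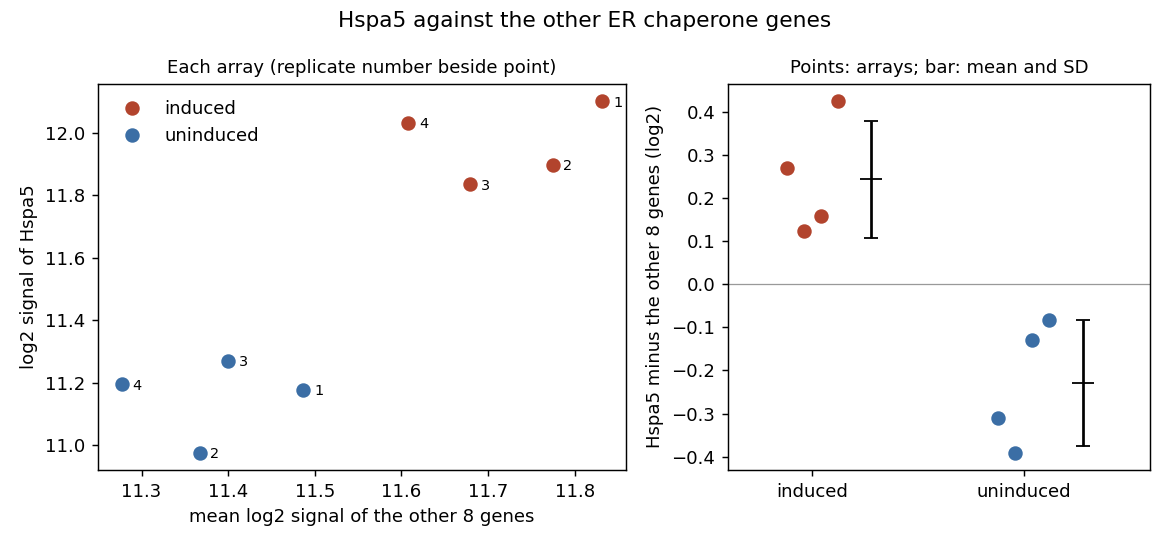
Left, log2 signal of Hspa5 against the mean log2 signal of the other 8 genes, 1 point per array with its replicate number; right, their difference by group, with the mean and SD as a bar. The 4 induced arrays lie at 0.12 to 0.43 in the right panel, and the 4 uninduced arrays at -0.39 to -0.08.

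The brightest probe sets of the members differed in how they varied among replicates. Over the 8 arrays, 33 of the 36 pairs of genes had a positive Pearson correlation, with a median of 0.63. After each group's mean was removed, 20 of 36 were positive and the median was 0.06. Within groups Calr went against Hyou1 and Canx (-0.86 each), while Canx went with Hsp90b1 (0.79), the extremes of the 36 pairs. These values belong to the probe sets used and not to the genes as a whole. Uninduced replicate 3 was the lowest of its group on the brightest Calr probe set, and the highest on another (X53363cds_s_at). These correlations are descriptions over 8 arrays that share their scaling. The mean log2 signal of the 9 genes was 11.86, 11.79, 11.70 and 11.66 on induced arrays 1 to 4, against 11.45, 11.32, 11.39 and 11.27 on uninduced arrays 1 to 4. The median signal of the whole array was 97.5, 103.9, 118.7 and 134.9 on the induced arrays, against 120.4, 111.2, 106.3 and 127.0 on the uninduced arrays. Among the induced arrays the chaperone mean was lower where the array median was higher, and the part of this in the result was not tested beyond the median-centred fit. In that fit the members' median log2 difference was 0.44, and 4 of the 6 calls held, 2 each of Hspa5 and Calr.

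Other genes of the ER folding pathway were read from 6 lists, with the brightest probe set of each gene. Over all 3623 genes tested this way, 156 rose (4.31%), 105 fell and 680 had an unadjusted limma p under 0.05. Of 11 other tested ER chaperones and folding enzymes 0 rose and 1 fell, at a median log2 difference of 0.03, with 3 at an unadjusted limma p under 0.05. The member that fell was Mogs, the glucosidase that makes the first cut on a new N-glycan, with a mean signal of 1021 ± 99.7 in induced and 1468 ± 228 in uninduced cells (log2 difference -0.51 ± 0.13, limma adjusted p = 0.0301). It passed in 2 of the 8 fits that left out an array, those without induced replicate 2 or uninduced replicate 4, and not with median centring (adjusted p = 0.310), and its other probe set did not pass (-0.22). Fkbp2, an ER prolyl isomerase, and Erp29, a redox-inactive relative of the isomerases, differed by -0.35 each and were not called (adjusted p = 0.123 and 0.218). Their other probe sets differed by -0.41 and -0.22 and were not called either (limma adjusted p = 0.0590 and 0.326). On both of these, every induced array lay below every uninduced array.

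Among sensors and factors of the unfolded protein response, 3 of 11 tested genes rose and 0 fell, where 4.31% of all 3623 genes rose. The list's median log2 difference was 0.10, with the same number, 3, at an unadjusted p under 0.05. The other 8 were not called, among them Eif2s1 (0.22, limma adjusted p = 0.426) and Trib3 (0.13, limma adjusted p = 0.744). The list named 22 genes, of which 11 were on the array, and Xbp1 was not tested. The brightest probe set of the sensor Eif2ak3 read 41.8 to 97.4, under the background level of every array (102 to 183). The transcription factor Atf3 rose by 1.67 ± 0.16 on the log2 scale (limma adjusted p = 4.1e-05). Ppp1r15a, which directs the phosphatase that restarts translation, rose by 1.01 ± 0.13 (adjusted p = 0.00046), and its other probe set rose by 1.09. Ddit3, a factor linked to cell death under ER stress, differed by 0.94 ± 0.26 and just passed (adjusted p = 0.0477). Ddit3 passed in 6 of 19 alternatives, and not with median centring (limma adjusted p = 0.0988) or quantile normalization (0.0597). It passed without induced replicate 3 or 4 and not when any other array was left out, with an adjusted p of at most 0.137. Induced replicate 2 read 510, and the other induced arrays 211 to 290. The NF-Y subunits Nfya, Nfyb and Nfyc, looked up after the others were seen, differed by -0.06, -0.09 and -0.08 on their brightest probe sets and were not called (adjusted p = 0.943, 0.842 and 0.784).

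Genes for entry into the ER and for N-glycosylation had 0 of 10 called in either direction, at a median of 0.01. Sec61b, a subunit of the translocation channel, differed by 0.32 ± 0.09 (limma adjusted p = 0.0564), Ssr3, a subunit of the translocon-associated complex, by 0.49 ± 0.14 (adjusted p = 0.0576), and Rpn2, of the oligosaccharyltransferase, by -0.30 ± 0.12 (adjusted p = 0.196). At an unadjusted limma p under 0.05 there were 3 of the 10. ER-associated degradation had 4 genes tested and 0 called, also 0 at an unadjusted p under 0.05. Its lowest p-values belonged to the ubiquitin-conjugating enzyme Ube2j2 (-0.13), the adaptor Nsfl1c (0.12) and the ATPase Vcp (0.10). ER calcium handling had 0 of 7 called, with 1 at an unadjusted p under 0.05. The calcium pump Atp2a3 differed by 0.68 ± 0.19 (adjusted p = 0.0590), the inositol trisphosphate receptor Itpr3 by 0.18 and Tmbim6, an ER membrane protein, by 0.13.

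Chaperones of the cytosol and mitochondria were read for comparison. None of the 18 tested was called by limma in either direction, with 2 at an unadjusted p under 0.05, and their median log2 difference was -0.01 with a range of -0.39 to 0.33. Trap1, the mitochondrial Hsp90, differed by -0.39 ± 0.12 (limma adjusted p = 0.10), Dnaja1, a cytosolic Hsp40, by 0.33 ± 0.15 and Cct3, a chaperonin subunit, by 0.25 ± 0.12. The list did not hold Hspb1, a cytosolic small heat shock protein, which rose by 1.26 ± 0.11 (adjusted p = 2.46e-05), and by 1.095 and 1.23 on 2 of its other probe sets, while the last did not pass (0.21). The difference between this list and the ER chaperones was not tested.

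**Figure D5:**
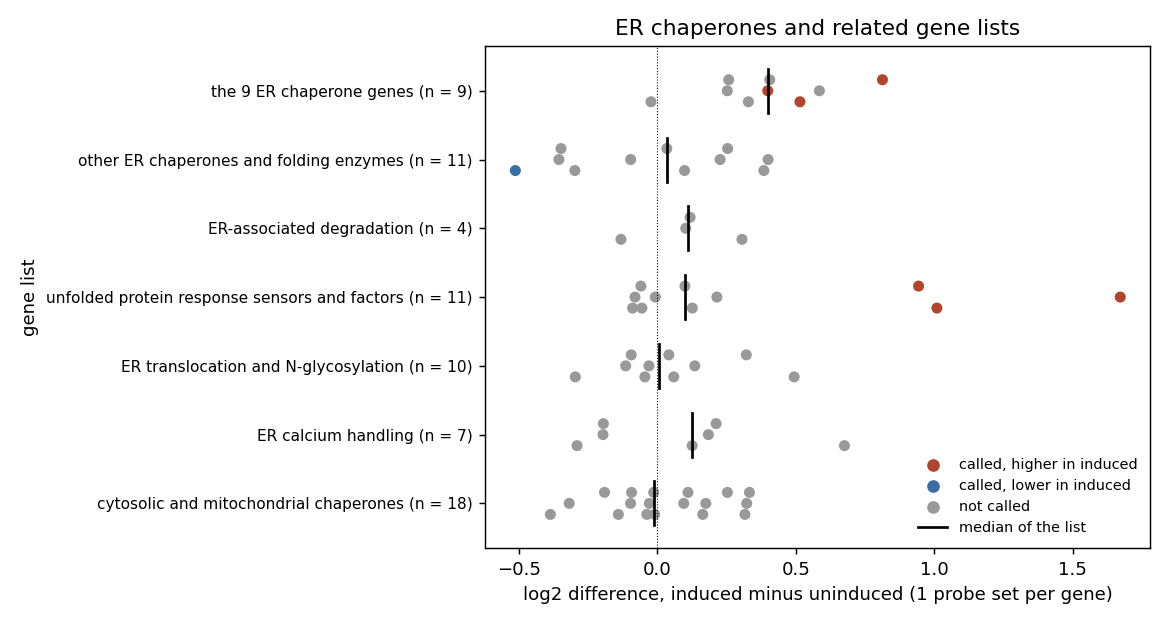
Log2 difference, induced minus uninduced, of each tested gene (1 probe set per gene) in the 9 ER chaperone genes and 6 related lists, with black lines at list medians. The ER chaperones have a median of 0.40, and the other lists have medians between -0.01 and 0.13; red points rose, the blue point (Mogs) fell and grey points were not called.

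The genes whose pattern over the 8 arrays was most like the members' mean were found by Pearson correlation with the average standardized profile of the 9 genes. They were Gstm1 (r = 0.98), a glutathione transferase, Dusp1 (0.98), a phosphatase of MAP kinases, Scd (0.98), a fatty acid desaturase, Glul (0.98), glutamine synthetase, Jun (0.97), a subunit of AP-1, and Hspb1 (0.97), a small heat shock protein. With each group's mean removed, the same 6 correlations were 0.84, 0.88, 0.88, 0.93, 0.80 and 0.76 in that order. The correlations over the 8 arrays are the highest of all single-symbol genes tested outside the members. Those with the group means removed were not ranked over genes and come from the same arrays as the choice. Neither set carries a p. All 6 genes rose, by 0.43 (Glul) to 1.82 (Jun and Dusp1) on the log2 scale. The members' profile was higher on every induced array than on any uninduced array, so this direction follows from how the genes were chosen.

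Identity and quality of the samples were read from marker and control probe sets. Of 8 chromaffin cell markers on the array, 4 were above the background level on every array. Th and Dbh, which define catecholamine cells, were above it on 1 and 0 of 8 arrays. Phox2a and Gata3, transcription factors of this lineage, fell by 0.70 and 0.68 (limma adjusted p = 0.00048 and 0.0152), beside the chaperone rises. The granule protein genes Chgb and Scg2, like them above background on every array, leaned upward by 0.16 and 0.35 without passing the test. Slc18a1 and Th leaned downward, with differences of -0.16 and -0.20, and did not pass either. The summed signal of the 8 markers was 16380 to 17496 in induced and 16604 to 20745 in uninduced cells. Of 3 adrenal cortex, 2 glial and 3 leukocyte markers none was above background on all arrays. Their sums were 65.8 to 148.3, 79.6 to 143.4 and 39.6 to 193.3 in induced cells, against 80.8 to 213.8, 92.5 to 187.7 and 35.2 to 149.0 in uninduced cells. Of 6 fibroblast markers Col1a1 and Col3a1 were, with a sum over the list of 1552 to 1921 in induced and 1407 to 1784 in uninduced cells and 0 called. The 3′ to 5′ log2 signal ratio of Gapdh, a sign of RNA integrity, was 0.39 to 0.56 in induced and 0.20 to 0.50 in uninduced cells. For beta-actin it was -0.67 to 0.57 in induced and 0.08 to 0.57 in uninduced cells, the low value being induced replicate 3. For hexokinase it was 0.50 to 1.14 in induced and 0.87 to 1.37 in uninduced cells, lower on average in induced cells. The part of these markers and ratios in the chaperone results was not tested.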

How the data were processed

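RNA of 8 samples was measured on 1 Affymetrix array each. The deposited values are intensities, 1 linear signal per probe set, which the authors had scaled to a common level: each array's 2% trimmed mean lay at 500.8 to 500.9. The program that made them is not given in the sources used here. Symbols came from an array annotation (1 symbol for 7018 probe sets, several for 308, none for 1473); 6994 of the 7018 matched the rat list of RefSeq (GRCr8), as did all 9 members. A constant of 7, close to the 10th percentile of the signals, was added before log2. Left out were 59 controls and 2611 probe sets whose mean signal fell under the 30th percentile (36.0). Of 6129 probe sets, induced minus uninduced differences were fitted across all with limma 3.58.1 in R 4.3.3 (lmFit, eBayes with intensity trend) and adjusted by Benjamini-Hochberg, with a threshold of 0.05. Array number limits the precision. Members, lists and tests were chosen with earlier results of these data known. Named genes are all members, the 3 genes of lowest p in each of 6 lists, and the 6 most alike; others were looked up afterwards. The labels do not say that the replicate numbers pair samples, so the numbers were not taken as pairs. In the pairing check, same-numbered arrays deviated together with r of -0.14, 0.06, -0.09 and 0.19. Alternatives were other constants, filters, normalizations, variance models and blocks, and leaving out arrays. Promoter windows were searched with Python 3.11.15.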

Additional observations from a re-analysis of the deposited data

Results flagged for a closer look

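Of 48 groups of 4 values, 2 for each of the 23 probe sets and 2 for Hspa5 against the others, 7 held 1 array far from the other 3 by Dixon's ratio, and chance gives about 1 in 20. Pdia4 did so in both groups, with induced replicate 3 at 413.5 (the others 534.5 to 543.6) and uninduced replicate 1 at 522.7 (the others 384.0 to 400.7). Pdia6 had uninduced replicate 4 at 2438 (the others 3851 to 4199). Calr had uninduced replicate 3 low on 1 probe set, at 6392 (the others 7198 to 7315), and high on another, X53363cds_s_at, at 2716 (the others 2015 to 2114). Canx had induced replicate 2 at 3011 on L18889_at (the others 2816 to 2840) and uninduced replicate 2 at 4175 on rc_AI010725_at (the others 3880 to 3915).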

How the results depend on the processing

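Over 19 alternatives the members' median log2 difference stayed between 0.36 and 0.44, and the called member probe sets between 4 and 8, except 11 with array weights, which added Pdia3, Pdia6, P4hb and a second Hsp90b1 probe set. With the replicate number as a block there were 8 calls among the members, which added Pdia6 and a second Hsp90b1 probe set, and 367 over all probe sets; 1 of 4 induced arrays correlated best with its own number. Hspa5 minus the others was 0.46 without replicate 2 of both groups, where the exact permutation p of 0.1 is the smallest possible. The 433 calls over all probe sets (251 higher, 58.0%) became 229 with median centring (166 higher, 72.5%), 279 without the intensity trend and 221 without replicate 2 of both groups; without 1 array they were 314 to 411. Uncalled differences changed sign for Canx (rc_AI010725_g_at 0.011 with median centring and -0.14 to 0.10 without 1 array, rc_AI235707_g_at -0.047 to 0.14, rc_AA893328_at -0.030 to 0.11) and for P4hb (M21476_s_at, -0.018 without replicate 2 of both groups). The 3 probe sets that were not above background on all arrays limit what is known of Pdia3, Hyou1 and Hspa5 there.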
